A study of Homo sapiens with 16 samples.

Results

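The genes described are 49 genes of DNA replication and of the E2F programme that serves it: origin licensing and helicase loading, helicase activation, the replicative polymerases with their sliding clamp and clamp loader, Okazaki fragment joining, chromatin assembly, nucleotide supply, and E2F factors with cyclin E and other E2F-regulated genes. They were chosen by name, by matching symbols to the Ensembl IDs of the count tables. Of the 49, 48 were matched, among 63677 IDs in all, and all 48 passed the filter on low counts, the fewest reads for any of them in a library being 52 (POLE2). UHRF1 was not matched and its level is not used here. The cells were UACC62R, a human melanoma line made resistant to vemurafenib, which blocks mutant BRAF, by 2 months of growth at 2 uM and kept in that drug, and UACC62P, the parental melanoma line from which it came. Each line was sampled untreated (0 h) and after 2, 6 and 24 h in 10 uM CCG-222740, described as a blocker of transcription through MRTFA and MRTFB, coactivators of SRF, with 2 libraries in each of 8 groups. A library labelled as replicate 1 of UACC62P at 2 h looked like UACC62R and was left out, so that 15 libraries were used and UACC62P at 2 h had n = 1.

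E2F transcription factors drive the genes that a cell needs to enter and pass through S phase, and are held in check by the pocket proteins of the retinoblastoma family until cyclin-dependent kinases phosphorylate those proteins. Among the genes they drive are the MCM helicase subunits and their loaders, the polymerases and PCNA, the enzymes that make deoxynucleotides, cyclin E, and several E2F factors themselves. In a mixed culture the level of these messages follows the share of cells near the start of S phase as well as the amount of message per cell, and in bulk RNA fewer such cells and less RNA per cell cannot be told apart.

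The 15 libraries held 25.9 to 33.3 M reads in genes. SOX10, a melanocyte lineage factor, stood at 20.0 to 29.9 CPM (counts per M reads in genes, scaled by TMM) in UACC62R. In UACC62P it stood at 741 to 919 CPM, so this marker of the labelled tumour type was low in UACC62R. By edgeR, 6 of 7 melanocyte lineage markers were lower in UACC62R than in UACC62P at 0 h, against 26.1% of all genes. Log2 fold changes of the 7 ran from -9.51 to -0.22 at 0 h and from -9.70 to 1.12 at 24 h. The 12 markers of epithelial, endothelial and blood cells summed to 1.08 to 2.37 CPM per library, with CDH1, PECAM1, CD3E and HBB at 0 throughout. The labels do not say that replicates were separate cultures, and p-values then measure only the spread between these samples. No vehicle-treated library was used, and the untreated libraries carry other culture texts than the treated ones. The compound, its solvent, the hours after plating and a separate handling of the 0 h libraries therefore cannot be told apart in any comparison with 0 h. For treated UACC62R, the labels do not state whether vemurafenib stayed in the medium.

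E2F motifs were counted in the promoters of these genes, as a description, since the genes were chosen as replication and E2F target genes. In the RefSeq window of 250 bases before to 50 bases after each gene's start (build GRCh38.p14), 42 of the 49 genes had an entry. An E2F motif (TTTCCCGC, TTTCGCGC, TTTGCCGC or TTTGGCGC, on either strand) was found in 24 of the 42 (57.1%), against 4.96% of the 12577 promoters of all genes tested that had one. CCAAT stood in 54.8% of the members' windows and 36.4% of those of all genes tested, and the GC box GGGCGG in 73.8% and 66.6%. TTTGAA, a core of the cell cycle homology region of many mitotic promoters, stood in 1 member's window (2.38%) and in 10.3% of those of all genes tested. A GC box and an E2F motif can share bases, as they do in CLSPN. A match is a string of letters, not a measured site. Shown here are E2F1 and the 5 members with a match whose messages changed most at 24 h, with the E2F motif in capitals, 5′ to 3′ on the strand of the gene. They are E2F1 at chr20:33686336-33686635 (minus strand), CDCA7 at chr2:173354622-173354921 (plus), CLSPN at chr1:35769929-35770228 (minus), ZNF367 at chr9:96418321-96418620 (minus), CDT1 at chr16:88803539-88803838 (plus) and E2F2 at chr1:23531184-23531483 (minus).
E2F1: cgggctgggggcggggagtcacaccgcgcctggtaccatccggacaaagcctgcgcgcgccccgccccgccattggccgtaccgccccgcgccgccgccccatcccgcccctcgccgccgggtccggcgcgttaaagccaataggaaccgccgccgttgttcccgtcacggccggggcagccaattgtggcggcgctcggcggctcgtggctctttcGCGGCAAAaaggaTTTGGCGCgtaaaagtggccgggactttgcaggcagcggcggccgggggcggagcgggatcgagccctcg
CDCA7: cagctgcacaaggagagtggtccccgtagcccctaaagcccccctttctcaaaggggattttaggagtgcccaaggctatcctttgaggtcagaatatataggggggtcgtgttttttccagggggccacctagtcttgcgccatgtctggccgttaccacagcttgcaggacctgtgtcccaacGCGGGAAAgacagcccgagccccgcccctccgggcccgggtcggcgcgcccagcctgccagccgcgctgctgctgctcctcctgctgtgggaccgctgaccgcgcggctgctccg
CLSPN: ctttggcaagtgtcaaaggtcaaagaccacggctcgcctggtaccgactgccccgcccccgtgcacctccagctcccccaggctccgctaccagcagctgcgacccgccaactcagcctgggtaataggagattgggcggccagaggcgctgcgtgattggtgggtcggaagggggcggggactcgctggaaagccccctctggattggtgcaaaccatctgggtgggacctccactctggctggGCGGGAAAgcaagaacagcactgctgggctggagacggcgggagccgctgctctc
ZNF367: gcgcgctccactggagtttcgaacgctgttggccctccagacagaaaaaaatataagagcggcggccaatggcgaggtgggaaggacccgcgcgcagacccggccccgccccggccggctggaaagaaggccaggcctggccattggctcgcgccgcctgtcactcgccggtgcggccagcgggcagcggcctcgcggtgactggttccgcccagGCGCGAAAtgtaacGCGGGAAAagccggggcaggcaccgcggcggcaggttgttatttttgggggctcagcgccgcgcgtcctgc
CDT1: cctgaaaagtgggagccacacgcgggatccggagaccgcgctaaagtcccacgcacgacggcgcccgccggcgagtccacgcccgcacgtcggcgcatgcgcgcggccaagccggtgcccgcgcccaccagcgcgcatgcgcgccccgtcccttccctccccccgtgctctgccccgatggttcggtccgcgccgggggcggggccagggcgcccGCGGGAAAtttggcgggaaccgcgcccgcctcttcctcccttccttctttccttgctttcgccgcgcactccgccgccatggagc
E2F2: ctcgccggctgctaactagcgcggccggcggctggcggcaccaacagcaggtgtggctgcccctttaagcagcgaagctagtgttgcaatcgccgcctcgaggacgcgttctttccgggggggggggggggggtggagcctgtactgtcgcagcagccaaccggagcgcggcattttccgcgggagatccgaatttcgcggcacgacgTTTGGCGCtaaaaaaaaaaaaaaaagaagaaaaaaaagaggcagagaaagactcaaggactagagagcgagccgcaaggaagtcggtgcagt

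In UACC62R, nearly the whole set fell after 24 h in CCG-222740. Of the 48 genes, 46 were lower and 0 were higher at 24 h than at 0 h (edgeR's quasi-likelihood F test, p adjusted by Benjamini-Hochberg over all 20280 genes, threshold 0.05), against 8.23% of all genes lower and 6.48% higher. The median log2 fold change of the 48 was -0.84 (range -1.56 to -0.20), against 0.01 over all genes. The exceptions were CDC6 and E2F7. In either line 0 of the 48 were higher at 24 h also at an unadjusted p under 0.05 and by DESeq2. Both 24 h libraries lay below both 0 h libraries for 47 of the 48, against 26.8% of all genes, CDC6 being the one that overlapped. The summed level of the 48 genes was 2298 and 2940 CPM at 24 h, against 4168 and 4615 CPM at 0 h. The drop came after 6 h: at 24 h against 6 h all 48 were lower and 0 higher, against 7.39% and 5.18% of all genes, with a median of -0.81 (-1.63 to -0.42). That comparison shares its 24 h libraries with the one against 0 h. With the replicate number as a block, all 48 were lower at 24 h than at 0 h, against 13.2% of all genes, and CDC6 (adjusted p = 0.0141) and E2F7 (0.0374) passed as well. With the left-out library put back into the fit, 25 of the 48 were called against 0 h and 16 against 6 h.

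**Figure D1:**
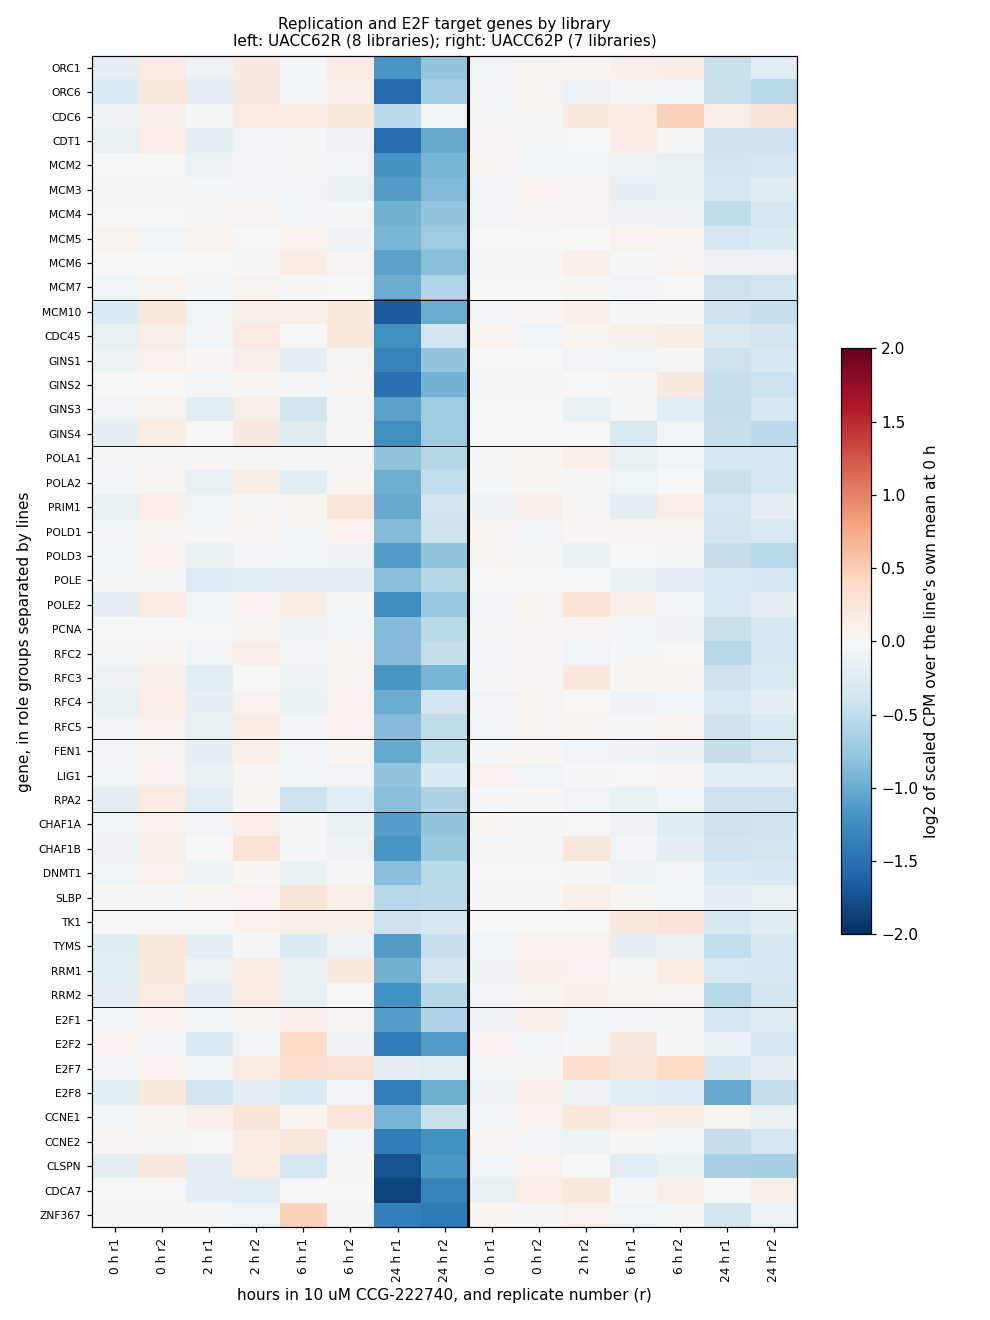
Level of each of the 48 genes (rows, in role groups) in each of 15 libraries (columns, by hours in CCG-222740 and replicate), as log2 of scaled CPM over the line's own mean at 0 h; UACC62R is on the left and UACC62P on the right. The 24 h columns of UACC62R are the lowest of that line for nearly every gene, replicate 1 below replicate 2, and those of UACC62P are lower by less.

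The 2 UACC62R libraries at 24 h were not equally low. Replicate 1 lay below replicate 2 for 46 of 48 genes, with a median log2 difference of 0.41 (replicate 2 over replicate 1). The same order held for 41 genes at 0 h with a median of 0.17, for 44 at 2 h with 0.16, and for 32 at 6 h with 0.07. Without replicate 1 of the 24 h group 39 genes were called lower, and without replicate 2 of that group 47. Without replicate 1 of the 0 h group 46 were called, and without replicate 2 of it 36.

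Origin licensing genes load the MCM helicase onto DNA before S phase. In UACC62R, 9 of the 10 were lower at 24 h (median log2 fold change -0.95), and in UACC62P 3 of 10 were (median -0.34). CDT1 (ENSG00000167513), which brings the MCM ring to origins, had 18.2 and 26.1 CPM in UACC62R at 24 h, against 47.5 and 57.5 CPM at 0 h. That was a log2 fold change of -1.24 ± 0.14 (SE here and below, for 2 libraries a group; edgeR adjusted p = 5.61e-05). In UACC62P it had 41.8 and 42.5 CPM at 24 h, against 58.2 and 54.6 CPM at 0 h, which did not overlap but did not pass the test (-0.42 ± 0.13, edgeR adjusted p = 0.104). The helicase subunit MCM2 (ENSG00000073111) had 42.3 and 50.3 CPM at 24 h and 95.6 and 97.0 CPM at 0 h in UACC62R (-1.06 ± 0.09, edgeR adjusted p = 4.79e-06). It was one of the few genes here that also passed in UACC62P, with 97.1 and 101 CPM at 24 h against 133 and 121 CPM at 0 h (-0.37 ± 0.08, edgeR adjusted p = 0.0273). Another subunit of the same ring, MCM6 (ENSG00000076003), stood at 38.9 and 45.0 CPM at 24 h and at 81.9 and 81.1 CPM at 0 h in UACC62R (-0.96 ± 0.08, edgeR adjusted p = 5.55e-06). In UACC62P its libraries lay close together, at 156 and 157 CPM at 24 h and 168 and 172 CPM at 0 h (-0.12 ± 0.08, edgeR adjusted p = 0.464). MCM3 had 77.8 and 91.8 CPM at 24 h and 165 and 172 CPM at 0 h in UACC62R, and 182 and 192 CPM at 24 h and 215 and 241 CPM at 0 h in UACC62P. CDC6, the ATPase that acts with CDT1, stood apart. Its UACC62R libraries overlapped, with 84.6 and 116 CPM at 24 h and 112 and 131 CPM at 0 h (-0.27 ± 0.14, edgeR adjusted p = 0.215). In UACC62P it was 142 and 158 CPM at 24 h and 129 and 134 CPM at 0 h (0.19 ± 0.14, edgeR adjusted p = 0.518). The fold change of CDC6 in UACC62R was -0.52 without replicate 2 of the 24 h group, where it passed (edgeR adjusted p = 0.0224).

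Helicase activation turns the loaded MCM ring into a moving fork through CDC45, the GINS complex and MCM10. All 6 genes were lower at 24 h in UACC62R (median -0.98), and by edgeR 0 of 6 passed in UACC62P (median -0.42; 5 lower at an unadjusted p under 0.05, 2 by DESeq2). MCM10 (ENSG00000065328), which promotes that activation, had 8.51 and 13.5 CPM in UACC62R at 24 h against 22.3 and 31.6 CPM at 0 h, a change of -1.29 ± 0.18 (edgeR adjusted p = 0.000373). In UACC62P it had 30.1 and 29.4 CPM at 24 h against 39.0 and 42.2 CPM at 0 h (-0.45 ± 0.17, edgeR adjusted p = 0.181). The GINS subunit GINS2 had 8.74 and 12.8 CPM at 24 h and 24.7 and 24.5 CPM at 0 h in UACC62R (-1.19 ± 0.14, edgeR adjusted p = 7.27e-05). Its UACC62P libraries were 20.5 and 21.0 CPM at 24 h and 27.7 and 28.9 CPM at 0 h (-0.45 ± 0.13, edgeR adjusted p = 0.0819), separate but closer.

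The polymerase group holds the primase and polymerases alpha, delta and epsilon, the clamp PCNA that tethers them, and the RFC subunits that load the clamp. All 12 were lower at 24 h in UACC62R (median -0.69, -1.04 to -0.62), and 3 of 12 passed in UACC62P (median -0.34). RFC3, a clamp loader subunit, had 16.9 and 20.0 CPM at 24 h and 35.0 and 40.9 CPM at 0 h in UACC62R (-1.04 ± 0.12, edgeR adjusted p = 5.72e-05), and 38.9 and 42.7 CPM at 24 h and 50.3 and 53.6 CPM at 0 h in UACC62P (-0.35 ± 0.11, 0.103). POLE2, an accessory subunit of the leading strand polymerase, had the fewest reads of the set. It stood at 1.69 and 2.36 CPM at 24 h and 3.49 and 4.48 CPM at 0 h in UACC62R (-0.97 ± 0.20, edgeR adjusted p = 0.00428). Without replicate 2 of the UACC62R 0 h group its adjusted p was 0.0654. PCNA (ENSG00000132646) fell in both lines. It had 92.2 and 116 CPM at 24 h and 167 and 170 CPM at 0 h in UACC62R (-0.70 ± 0.09, edgeR adjusted p = 0.000210), and 128 and 139 CPM at 24 h and 170 and 178 CPM at 0 h in UACC62P (-0.39 ± 0.09, edgeR adjusted p = 0.0319). The others that passed in UACC62P were POLD3, a polymerase delta subunit (-0.50 ± 0.11), and POLE, the catalytic subunit of polymerase epsilon (-0.31 ± 0.08). PCNA, RFC3, RFC5, FEN1, RPA2, TYMS and RRM2 have named pseudogenes, and reads that align to more than 1 place were not counted, so their levels are uncertain. For 16 members an exon lies opposite one of another gene (TYMS and ENOSF1, for example) and for 8 on the same strand (GENCODE v29). The sources used here do not give whether the counting used strand.

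Okazaki fragment joining and single-strand binding are represented by FEN1, the flap nuclease, LIG1, the ligase, and RPA2, a subunit of the single-strand binding protein. All 3 were lower in UACC62R at 24 h (median -0.72), and by edgeR 0 of 3 passed in UACC62P (median -0.43; 2 lower at an unadjusted p under 0.05, 2 by DESeq2). FEN1 had 52.0 and 74.6 CPM at 24 h and 99.3 and 110 CPM at 0 h in UACC62R (-0.72 ± 0.13, edgeR adjusted p = 0.00256), and 94.4 and 100 CPM at 24 h and 127 and 135 CPM at 0 h in UACC62P (-0.43 ± 0.13, 0.0935). RPA2 had 26.2 and 30.4 CPM at 24 h and 41.1 and 52.9 CPM at 0 h (-0.73 ± 0.13, edgeR adjusted p = 0.00152), again without overlap. In UACC62P it had 40.4 and 40.6 CPM at 24 h and 53.4 and 55.7 CPM at 0 h (-0.43 ± 0.13, edgeR adjusted p = 0.0762). LIG1 changed least of the 3, with 24.2 and 34.5 CPM at 24 h and 39.4 and 44.2 CPM at 0 h (-0.51 ± 0.13, edgeR adjusted p = 0.0198), and 49.2 and 48.4 CPM at 24 h and 60.1 and 53.3 CPM at 0 h in UACC62P (-0.22 ± 0.13, 0.424).

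Chromatin genes of the set package and mark new DNA: CHAF1A and CHAF1B of the assembly factor CAF-1, the maintenance methyltransferase DNMT1, and SLBP, which binds the stem-loop of replication-dependent histone mRNA. All 4 were lower in UACC62R at 24 h (median -0.81). CHAF1A had 32.9 and 40.5 CPM at 24 h and 66.2 and 74.3 CPM at 0 h in UACC62R (-0.94 ± 0.10, edgeR adjusted p = 5.85e-05), and was the 1 of 4 that passed in UACC62P, with 92.4 and 93.6 CPM at 24 h and 127 and 121 CPM at 0 h (-0.41 ± 0.10, edgeR adjusted p = 0.0376). CHAF1B fell alongside its partner in UACC62R, to 16.2 and 21.7 CPM at 24 h, against 33.8 and 38.8 CPM at 0 h (-0.94 ± 0.13, edgeR adjusted p = 0.000348). In UACC62P it had 35.5 and 36.4 CPM at 24 h and 45.8 and 47.7 CPM at 0 h (-0.38 ± 0.13, edgeR adjusted p = 0.125). SLBP fell less, with 40.0 and 40.7 CPM at 24 h and 59.4 and 57.6 CPM at 0 h (-0.54 ± 0.07, edgeR adjusted p = 0.000309).

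Nucleotide supply genes make the deoxynucleotides. All 4 were lower in UACC62R at 24 h (median -0.70). In UACC62P only TK1 passed by edgeR (median -0.35; 3 lower at an unadjusted p under 0.05, 2 by DESeq2). RRM2 (-0.46) and TYMS (-0.40) had larger decreases there than TK1 but did not pass. RRM2 (ENSG00000171848), the S phase subunit of ribonucleotide reductase, had 167 and 262 CPM at 24 h and 341 and 434 CPM at 0 h in UACC62R (-0.86 ± 0.17, edgeR adjusted p = 0.00421). Thymidylate synthase TYMS had 32.3 and 51.0 CPM at 24 h and 59.6 and 81.0 CPM at 0 h (-0.75 ± 0.18, edgeR adjusted p = 0.0102). Both had a wide gap between replicates, and RRM2 (0.0645) and TYMS (0.151) had adjusted p over the threshold without replicate 2 of the UACC62R 0 h group. Without replicate 1 of the 24 h group, TYMS had 0.0802. Thymidine kinase TK1 (ENSG00000167900), which salvages thymidine, fell in both lines. It had 175 and 187 CPM at 24 h and 234 and 233 CPM at 0 h in UACC62R (-0.37 ± 0.07, edgeR adjusted p = 0.00240), and 112 and 118 CPM at 24 h and 140 and 139 CPM at 0 h in UACC62P (-0.28 ± 0.07, edgeR adjusted p = 0.0375).

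The E2F factors, cyclin E genes and other E2F-regulated genes held the members with the largest changes. In UACC62R 8 of 9 were lower at 24 h, with a median of -1.24, and in UACC62P 0 of 9 passed by edgeR (median -0.26; 5 lower at an unadjusted p under 0.05, 2 by DESeq2). E2F1 (ENSG00000101412), an activating E2F, had 32.1 and 45.4 CPM at 24 h and 64.9 and 73.2 CPM at 0 h in UACC62R (-0.83 ± 0.13, edgeR adjusted p = 0.000828). Its UACC62P values were 47.9 and 51.5 CPM at 24 h and 56.2 and 65.5 CPM at 0 h (-0.29 ± 0.13, edgeR adjusted p = 0.262). CDCA7 (ENSG00000144354), a MYC- and E2F-regulated partner of the remodeller HELLS, fell most. It had 5.36 and 7.55 CPM at 24 h and 18.9 and 19.3 CPM at 0 h in UACC62R, a log2 fold change of -1.56 ± 0.14 (edgeR adjusted p = 1.22e-05). In UACC62P its groups overlapped, with 45.0 and 48.9 CPM at 24 h and 40.7 and 49.1 CPM at 0 h (0.06 ± 0.12, edgeR adjusted p = 0.850). CLSPN, the claspin adaptor of the replication checkpoint, had 14.8 and 22.3 CPM at 24 h and 43.2 and 56.1 CPM at 0 h in UACC62R (-1.42 ± 0.18, edgeR adjusted p = 0.000180). It was also among the larger decreases in UACC62P, with 38.4 and 38.0 CPM at 24 h and 56.8 and 63.8 CPM at 0 h, but did not pass there (-0.66 ± 0.18, edgeR adjusted p = 0.0550).

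ZNF367, a zinc finger factor, had 4.55 and 4.40 CPM at 24 h and 11.6 and 11.9 CPM at 0 h in UACC62R (-1.39 ± 0.16, edgeR adjusted p = 5.72e-05). The cyclin E genes, whose products activate CDK2 at the start of S phase, differed in size. CCNE2 had 3.67 and 4.17 CPM at 24 h and 9.92 and 9.49 CPM at 0 h in UACC62R (-1.31 ± 0.15, edgeR adjusted p = 5.72e-05), and 6.75 and 7.46 CPM at 24 h and 9.83 and 8.97 CPM at 0 h in UACC62P (-0.41 ± 0.14, 0.132). CCNE1 had 12.8 and 17.9 CPM at 24 h and 23.5 and 25.5 CPM at 0 h (-0.67 ± 0.14, edgeR adjusted p = 0.00609). The CCNE1 call did not hold without replicate 2 of the 0 h group (adjusted p = 0.062) or without replicate 1 of the 24 h group (0.0548). E2F7 (ENSG00000165891), a repressive E2F that acts in a negative loop on E2F1, was highest at 6 h. Its UACC62R libraries held 120 and 135 CPM untreated, 123 and 141 CPM after 2 h, 159 and 156 CPM after 6 h, and 112 and 109 CPM after 24 h, and the 24 h libraries were lower than those at 0 h. At 24 h against 0 h its change was -0.20 ± 0.09 (edgeR adjusted p = 0.145). E2F8, the other repressive E2F of this type, fell in UACC62R by 1.17 ± 0.20 on the log2 scale (edgeR adjusted p = 0.00143). In UACC62P its log2 fold change was -0.71, the lowest of the 48 there, but it did not pass by edgeR.

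**Figure D2:**
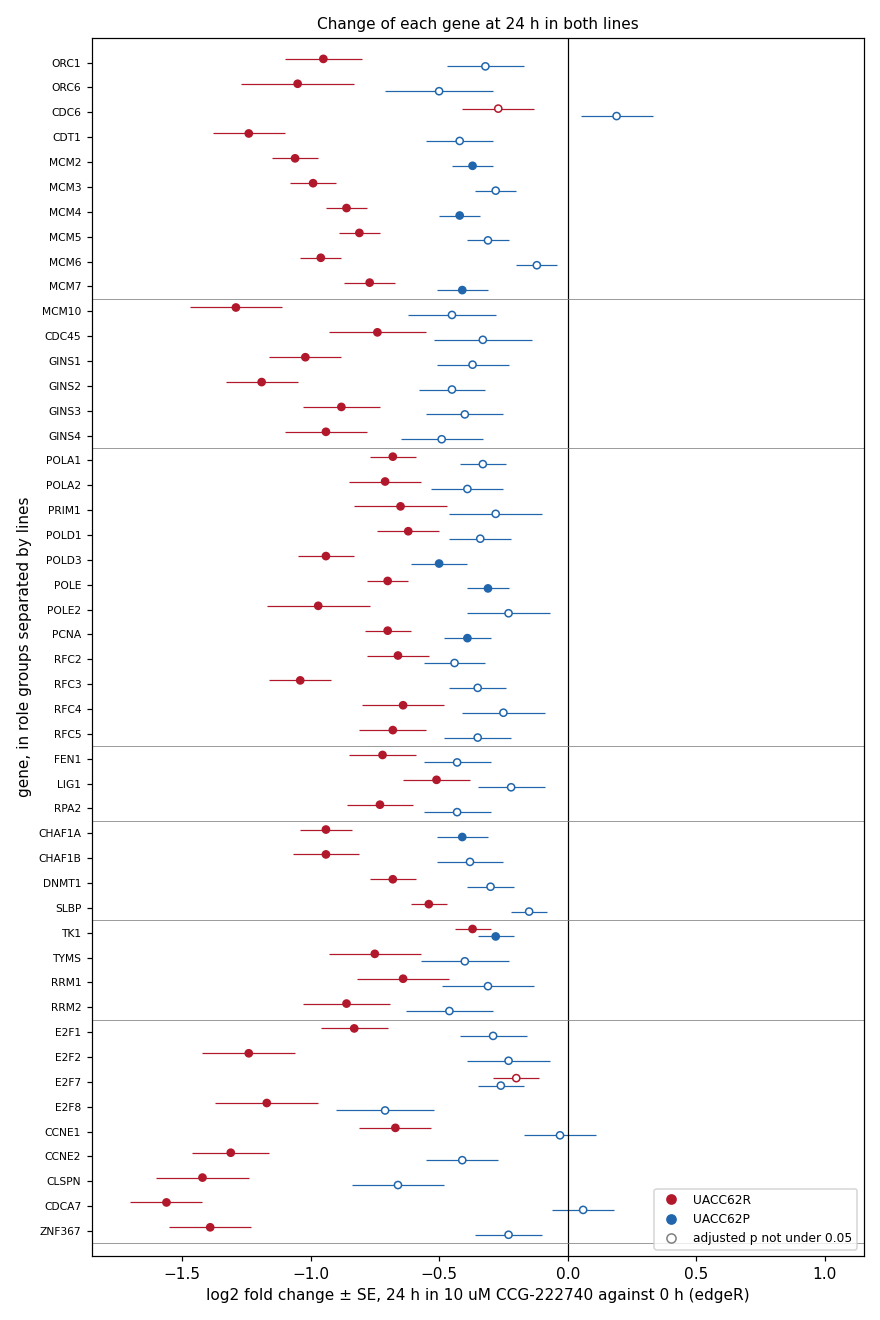
Log2 fold change at 24 h against 0 h of each gene (rows, in role groups), with its SE as a bar, in UACC62R (red) and UACC62P (blue); filled points passed the test. The UACC62R points lie between -1.56 and -0.20 and the UACC62P points between -0.71 and 0.19, the gap being widest for CDCA7.

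In UACC62P fewer of the genes passed. Of the 48, 8 were lower at 24 h and 0 were higher, against 1.65% of all genes lower: MCM2, MCM4, MCM7, POLD3, POLE, PCNA, CHAF1A and TK1. The median was -0.35 (-0.71 to 0.19), against 0.00 over all genes, and 46 of the 48 fold changes were negative. Both 24 h libraries lay below both 0 h libraries for 45 genes, against 23.9% of all genes, and 35 had an unadjusted p under 0.05. The summed level was 4008 and 4188 CPM at 24 h, against 5062 and 5223 CPM at 0 h. With the replicate number as a block, 34 were lower, against 6.04% of all genes, and DESeq2 called 22. Those 34 were 8 of 10 licensing genes, 5 of 6 of helicase activation, 9 of 12 of the polymerase group, 2 of 3 of Okazaki fragment joining, 3 of 4 chromatin genes, all 4 of nucleotide supply and 3 of 9 of the E2F and cyclin E group. The count of 8 rested on each of the 4 libraries. It was 1 without replicate 1 and 0 without replicate 2 of the 0 h group, and 0 without replicate 1 and 2 without replicate 2 of the 24 h group. At 24 h against 6 h, 2 were lower (TK1 -0.51 ± 0.07 and E2F7 -0.57 ± 0.09), against 0.390% of all genes lower and 0.345% higher, and 21 with the block, against 2.71%. That count of 2 was 1 without replicate 2 of the 6 h group, 0 without replicate 1 of the 24 h group and 1 without replicate 2 of the 24 h group.

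At 2 h and 6 h the set was close to its 0 h level in both lines. By edgeR, 0 of 48 passed in either direction at 2 h in UACC62R (0.0493% of all genes higher, 0.0247% lower), at 6 h in UACC62R (0.380% and 0.286%), at 2 h in UACC62P (0.0296% and 0.0148%) and at 6 h in UACC62P (0.848% and 0.671%). The medians over the 48 were 0.01, -0.01, 0.03 and -0.02 in that order, each within 0.03 of 0. An unadjusted p under 0.05 was reached by 1 gene lower at 2 h in UACC62R (POLE, -0.23 ± 0.08) and by 2 higher (SLBP and E2F7) and 1 lower (RPA2) at 6 h there. In UACC62P it was reached by 1 higher at 2 h (E2F7) and 3 higher at 6 h. DESeq2 called 2 at 6 h in UACC62P and 0 in the other 3 comparisons.

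With the replicate number as a block, 3 members were higher at 6 h in UACC62P (3.64% of all genes) and 1 in UACC62R (1.74%), near the shares of all genes. They were E2F7, TK1 and CDC6 in UACC62P and E2F7 in UACC62R. In UACC62P, E2F7 had 56.8 and 58.8 CPM untreated, 71.9 CPM in the single library used at 2 h, 68.5 and 75.6 CPM after 6 h, and 46.4 and 50.4 CPM after 24 h. Its change at 6 h was 0.32 ± 0.09 (edgeR adjusted p = 0.107; 0.0109 with the block), and in UACC62R 0.31 ± 0.09 (0.180; 0.0140 with the block). TK1 in UACC62P had 159 and 170 CPM at 6 h, against 140 and 139 CPM at 0 h (0.23 ± 0.07, edgeR adjusted p = 0.120; 0.0172 with the block). CDC6 in UACC62P had 147 and 181 CPM at 6 h, against 129 and 134 CPM at 0 h (0.32 ± 0.14, edgeR adjusted p = 0.314; 0.0231 with the block).

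**Figure D3:**
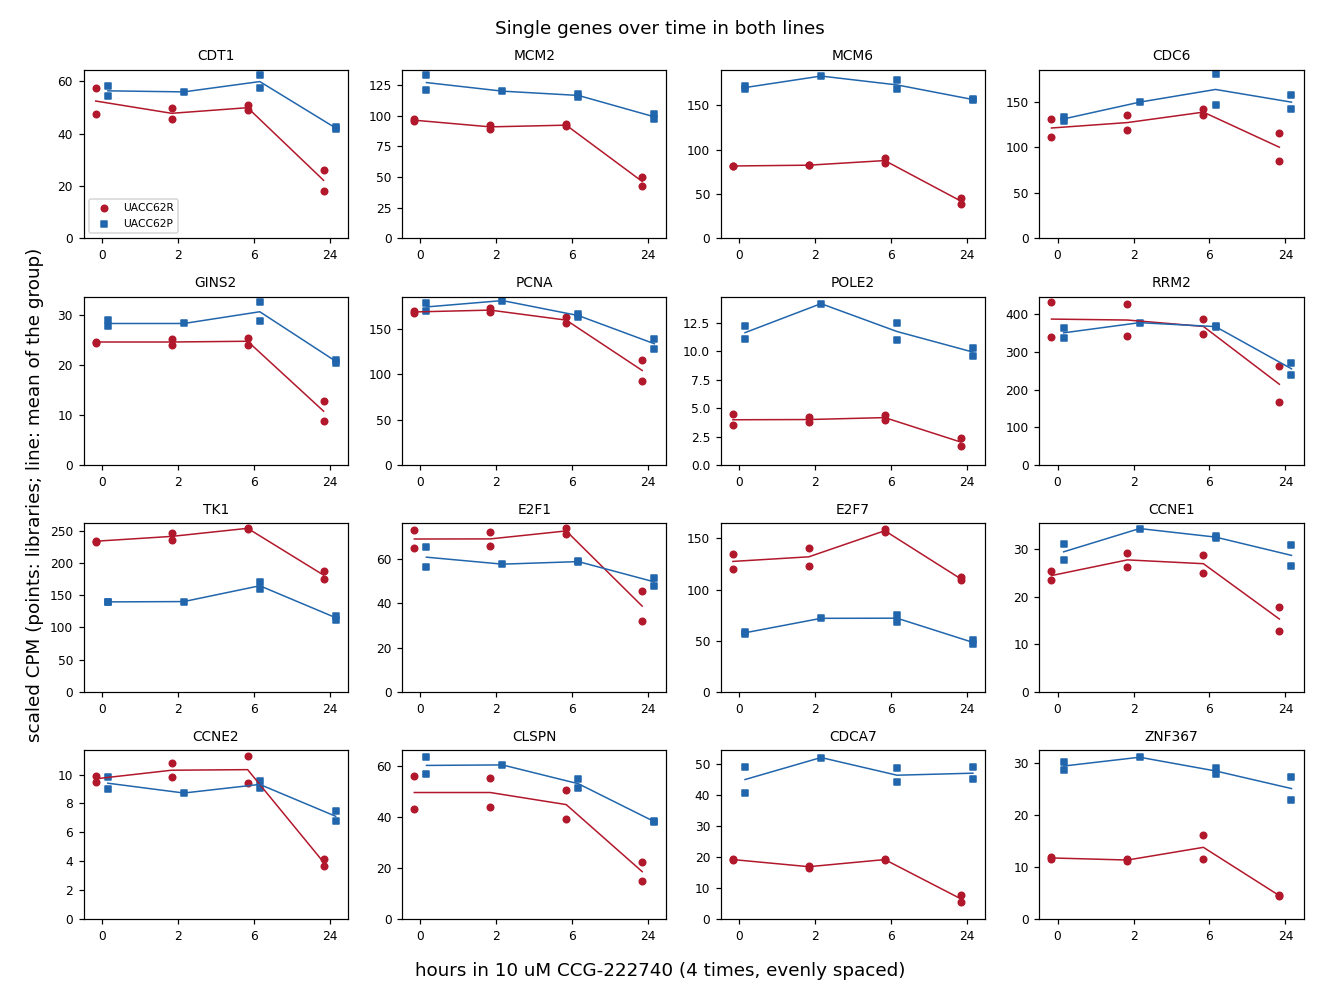
Scaled CPM (y axis) of 16 single genes at 0, 2, 6 and 24 h in CCG-222740 (x axis, evenly spaced) in UACC62R (red) and UACC62P (blue), with a point for each library and lines through the group means. For most genes the lines are level to 6 h and the UACC62R line drops at 24 h. E2F7 is highest at 6 h, a rise that did not pass in the main fit in either line. In UACC62P its single 2 h library lies between the 6 h libraries. CDC6 was not called at 24 h in the main fit in either line, and its UACC62P line is higher at 24 h than at 0 h.

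The 24 h response was set against the other line's by the difference of the log2 fold changes, UACC62R minus UACC62P. For 47 of the 48 genes the difference was negative, with a median of -0.45 (-1.62 to 0.05), against -0.02 over all genes. For 5 genes it passed the test, each lower, against 0.321% of all genes. These were CDCA7 (-1.62 ± 0.19, edgeR adjusted p = 0.00404), ZNF367 (-1.16 ± 0.21, 0.0221), MCM6 (-0.84 ± 0.11, 0.00614), MCM3 (-0.71 ± 0.12, 0.0199) and MCM2 (-0.69 ± 0.12, 0.0212). In UACC62P, ZNF367 had 22.9 and 27.4 CPM at 24 h and 30.3 and 28.7 CPM at 0 h, so that the gap between its groups was small there. With the block 24 passed, against 2.29% of all genes, and by DESeq2 14. The count depended on single libraries. It was 3 without replicate 1 and 3 without replicate 2 of UACC62P at 0 h, 3 without replicate 1 and 2 without replicate 2 of UACC62R at 0 h, 2 without either replicate of UACC62P at 24 h, 2 without replicate 1 of UACC62R at 24 h and 15 without replicate 2 of it. CDCA7 and MCM6 passed in each of these 8 fits. ZNF367, at -1.30 to -1.03, passed in none of them, and MCM3 and MCM2 passed in only some. For the other 43 genes a difference of response was not shown at this depth and number of libraries. TK1, for example, differed by -0.09 ± 0.10 (edgeR adjusted p = 0.809).

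Before CCG-222740 the lines already differed in some of these genes, as they did in 53.9% of all genes tested. UACC62R was kept in vemurafenib, so the line and that drug cannot be told apart at 0 h. At 0 h, 21 of 48 were lower in UACC62R than in UACC62P and 4 were higher, against 26.1% and 27.8% of all genes, with a median of -0.30 against 0.02 over all genes. The largest was POLE2, with 3.49 and 4.48 CPM in UACC62R and 11.1 and 12.2 CPM in UACC62P (-1.54 ± 0.17, edgeR adjusted p = 3.29e-06). ZNF367 had 11.6 and 11.9 CPM in UACC62R and 30.3 and 28.7 CPM in UACC62P (-1.33 ± 0.14), CDCA7 18.9 and 19.3 CPM against 40.7 and 49.1 CPM (-1.23 ± 0.13), and MCM6 81.9 and 81.1 CPM against 168 and 172 CPM (-1.06 ± 0.08). These 4 genes were lower in every UACC62R library than in any UACC62P library used. Of the other subunits of the MCM ring, MCM2 (-0.40 ± 0.08), MCM3 (-0.44 ± 0.09), MCM5 (-0.32 ± 0.08) and MCM7 (-0.36 ± 0.10) were lower in UACC62R. MCM4, the only licensing gene with a positive fold change, did not pass (0.17 ± 0.08, edgeR adjusted p = 0.0896). DESeq2 and the replicate block each called 1 licensing gene higher.

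The 4 genes higher in UACC62R at 0 h were E2F7, GINS4, TK1 and POLD3. E2F7 had 120 and 135 CPM in UACC62R and 56.8 and 58.8 CPM in UACC62P (1.14 ± 0.09, edgeR adjusted p = 8.17e-08). The GINS subunit GINS4 had 50.8 and 63.3 CPM in UACC62R and 33.0 and 33.7 CPM in UACC62P (0.78 ± 0.16, edgeR adjusted p = 0.000787), opposite in sign to the other 3 GINS genes. TK1 had 234 and 233 CPM in UACC62R and 140 and 139 CPM in UACC62P (0.74 ± 0.07, edgeR adjusted p = 4.48e-07). POLD3 differed by 0.29 ± 0.11. E2F1, with 64.9 and 73.2 CPM in UACC62R and 56.2 and 65.5 CPM in UACC62P, overlapped between the lines (0.18 ± 0.13, edgeR adjusted p = 0.258). The activating factor E2F2, with 8.90 and 7.86 CPM in UACC62R and 17.9 and 15.9 CPM in UACC62P, was lower (-1.01 ± 0.16, edgeR adjusted p = 0.000110). Replicate 1 of UACC62R at 0 h decided some of these calls: without it 14 members were lower, and LIG1 (-0.37, adjusted p = 0.0745) was no longer among them. LIG1 also missed the threshold without replicate 1 of UACC62P at 0 h (-0.35, adjusted p = 0.0936). With the left-out library put back, 12 were lower.

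Between the lines at 24 h, 38 of 48 were lower in UACC62R and 2 (E2F7 and TK1) were higher, against 27.0% and 28.1% of all genes, with a median of -0.82. These libraries are the same as those in the 24 h comparisons above. CDCA7 had 5.36 and 7.55 CPM in UACC62R and 45.0 and 48.9 CPM in UACC62P, a log2 fold change of -2.86 ± 0.14. MCM6 had 38.9 and 45.0 CPM in UACC62R and 156 and 157 CPM in UACC62P (-1.90 ± 0.08). The 8 genes that did not pass were CDC45, GINS4, POLA2, POLD3, RFC2, TYMS, RRM1 and RRM2.

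Other genes of the cell cycle were counted to place the set. At 24 h in UACC62R, 18 of 28 other replication factors were lower and 0 higher, beside 8.23% of all genes lower and 6.48% higher, the largest being ATAD5, which unloads PCNA (-0.92 ± 0.14), the nuclease DNA2 (-0.83 ± 0.14) and DSCC1 of an alternative clamp loader (-0.82 ± 0.20). Of 27 other E2F-regulated and homologous recombination genes, 24 were lower and 0 higher, among them the transcription factor MYBL2 (-1.25 ± 0.12) and the chromatin remodeller HELLS (-1.24 ± 0.14). Among 24 genes of G2/M and mitosis 14 were lower (22 with the block, against 13.2% of all genes) and 0 higher, among them BIRC5 (-0.96 ± 0.20), KIF23 (-0.84 ± 0.24) and the kinase PLK1 (-0.77 ± 0.17). DSCC1, KIF23 and PLK1 lost the call without replicate 2 of UACC62R at 0 h (adjusted p = 0.199, 0.263 and 0.106) and without replicate 1 at 24 h (0.132, 0.198 and 0.058), and BIRC5 without the first of these (0.0772). The summed level of the G2/M list was 2132 and 3230 CPM at 24 h and 3559 and 4708 CPM at 0 h in UACC62R, with the lower replicate the same as for the replication genes. Its part in the results above was not tested.

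Among E2F partners, pocket protein genes and G1 cyclins, CDKs and inhibitors, some genes passed in each direction. Of all genes, 8.23% were lower and 6.48% higher. Of 13 E2F partners and pocket protein genes in UACC62R at 24 h, 3 were lower, namely RBL1 (-0.68 ± 0.13), the dimer partner TFDP1 (-0.56 ± 0.09) and E2F4 (-0.29 ± 0.07), and 1 was higher, the pocket protein gene RBL2 (0.33 ± 0.07). RBL2 had 70.3 and 67.3 CPM at 24 h and 54.4 and 55.1 CPM at 0 h, and its adjusted p was 0.0681 without replicate 1 of the 24 h group. Of 13 tested G1 cyclins, CDKs and inhibitors, 6 were lower, the largest being the phosphatase CDC25A (-1.13 ± 0.19), cyclin A (CCNA2, -0.85 ± 0.20) and CDK2 (-0.76 ± 0.12). CCNA2 had an adjusted p of 0.132 without replicate 2 of the 0 h group and 0.0621 without replicate 1 of the 24 h group. The 1 higher was the CDK inhibitor gene CDKN1B, with 33.6 and 35.4 CPM at 24 h and 27.5 and 28.5 CPM at 0 h (0.30 ± 0.08, edgeR adjusted p = 0.0240). A single gene higher of 13 is near the share of all genes in either list. With the block 3 of the G1 list were higher, against 11.0% of all genes.

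In UACC62P at 24 h, beside 1.65% of all genes lower, these lists had 0 of 28, 1 of 27 (MYBL2, -0.50 ± 0.12), 4 of 24 (AURKB -0.77 ± 0.18, PLK1 -0.72 ± 0.17, CDC20 -0.60 ± 0.16 and FOXM1 -0.56 ± 0.13), 1 of 13 (TFDP1, -0.41 ± 0.09) and 1 of 13 (CCND3, -0.35 ± 0.09) lower, and 0 higher by edgeR or DESeq2. Other call rules gave as many or more. At an unadjusted p under 0.05, the counts lower in the same order of lists were 7, 13, 20, 3 and 6, by DESeq2 3, 4, 12, 1 and 5, and with the block 7, 14, 23, 3 and 6, against 6.04% of all genes with the block. AURKB, MYBL2, TFDP1, PLK1 and CDC20 each lost the call without any 1 of the 4 libraries, and CCND3 without any but replicate 2 at 0 h. The edgeR adjusted p of the kinase gene AURKB was then 0.111 to 0.161. The 48 replication genes were called lower at 95.8% in UACC62R and 16.7% in UACC62P, against 58.3% and 16.7% for the mitotic list. With the block, 34 of the 48 and 23 of the 24 mitotic genes were lower in UACC62P, and by DESeq2 22 and 12. The median in UACC62P was -0.35 for the replication genes and -0.54 for the mitotic list, and in UACC62R -0.84 and -0.61.

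Between the lines at 0 h, before CCG-222740 but with UACC62R kept in vemurafenib, the same lists were mixed. Of all genes, 27.8% were higher and 26.1% lower. Of 28 other replication factors 10 were lower and 3 higher in UACC62R, the largest being the helicase paralogue MCM9 (-0.89 ± 0.13), WDHD1 (-0.87 ± 0.16) and DBF4, the activator of the CDC7 kinase (-0.79 ± 0.23). Of 27 other E2F-regulated and recombination genes 10 were lower, led by the methyltransferase EZH2 (-0.96 ± 0.17), and 3 higher (5 with the block, against 30.0% of all genes), among them FANCD2 (0.77 ± 0.19) and BRIP1 (0.69 ± 0.19). Of 13 E2F partner and pocket protein genes 3 were higher, among them TFDP2 (0.81 ± 0.08) and RBL2 (0.73 ± 0.07), and 3 lower, the largest being LIN52 (-1.08 ± 0.19). Among 13 G1 cyclins, CDKs and inhibitors 2 were higher, cyclin D1 (CCND1, 1.86 ± 0.13) and the CDK inhibitor gene CDKN1A (1.16 ± 0.11), and 6 lower, led by CDKN1C (-5.06 ± 0.42). Of the 24 mitotic genes 6 were higher and 0 lower (12 and 1 with the block, against 30.0% and 28.6% of all genes), the largest being CDC25C (1.04 ± 0.28), KIF20A (0.94 ± 0.15) and KIF23 (0.60 ± 0.24). The calls of BRIP1 (adjusted p = 0.0753), CDC25C (0.100) and KIF23 (0.324) were lost without replicate 2 of UACC62R at 0 h, that of KIF23 also without replicate 1 (0.166) or 2 (0.100) of UACC62P at 0 h, and that of DBF4 without replicate 1 of UACC62R at 0 h (0.0849).

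**Figure D4:**
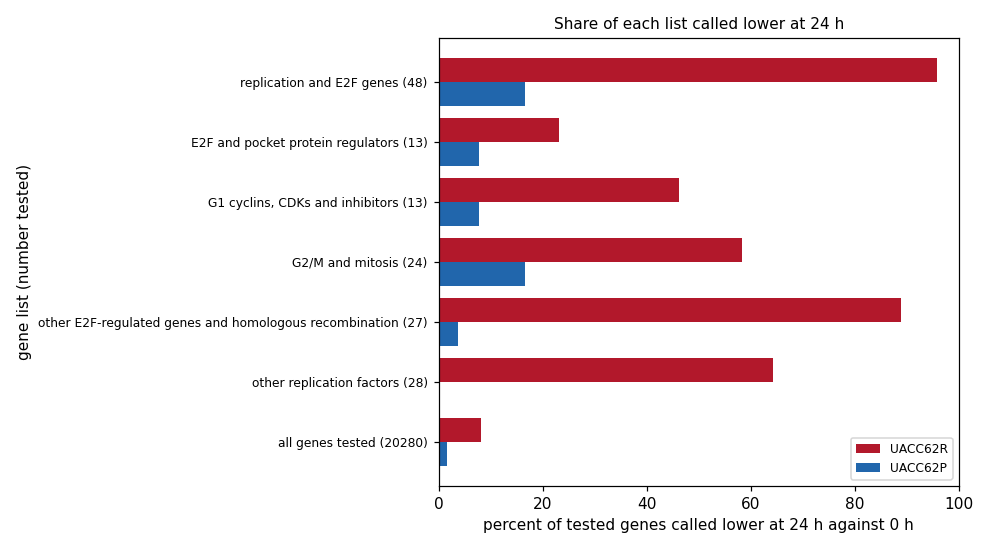
Percent of the tested genes of each list called lower at 24 h against 0 h (x axis), for UACC62R (red) and UACC62P (blue), with the number of genes tested beside each list name and all genes as the lowest pair of bars. The 48 replication and E2F genes stand at 95.8% in UACC62R and 16.7% in UACC62P, against 8.23% and 1.65% of all genes.

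Members with and without an E2F motif in the promoter window were also set side by side, as a description. The 23 tested members with a match had a median log2 fold change of -0.96 at 24 h in UACC62R, with 22 lower, and -0.33 in UACC62P, with 4 lower. The 18 without one had -0.68 in UACC62R, with 17 lower, and -0.34 in UACC62P, with 2 lower. Of the 6 promoters printed above, E2F1 and ZNF367 hold 2 matches each and the others 1.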

How the data were processed

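Per the labels' protocols, total RNA was made into stranded TruSeq mRNA libraries and sequenced single-end on an Illumina instrument. The submitters' processing notes name, per the labels, HISAT2 2.1.0, HTSeq 0.6.1, Trimmomatic 0.33, FastQC 0.11.5 and bcl2fastq 2.19.0, and the build hg19. The authors deposited raw read counts per Ensembl gene for each library, with no normalization. Of all reads, 6.12 to 17.9% were not aligned and 18.6 to 22.0% aligned to several places. Of those aligned once, 3.31 to 4.66% fell outside genes and 5.99 to 6.81% in several. The 6.12%, 4.66% and 5.99% belong to the left-out library. These 5 summary lines per file stayed out of library sizes and tests. Symbols came from a table of IDs and names (52181 of 63677 IDs), and groups and replicate numbers from the labels. Promoters are RefSeq windows of GRCh38.p14, matched by symbol and not by coordinate, 1 window a gene.

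Counts were tested with edgeR 4.0.16 (limma 3.58.1, R 4.3.3): TMM scaling, filterByExpr on the groups, 1 coefficient for each of 8 groups and the quasi-likelihood F test in 15 libraries (20280 genes, 7 residual degrees of freedom). Calls were made where the Benjamini-Hochberg adjusted p was under 0.05. A standard error is the absolute log2 fold change over the square root of F. Intervals from edgeR assume that the lone UACC62P 2 h library varied like the other groups. Levels in CPM are not divided by gene length, so they were compared between libraries and not between genes.

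The members and lists were chosen with earlier results of these data known. The naming rule picked the 2 called members of each role group with the largest log2 fold change at 24 h against 0 h in either line, the 1 with the largest between the lines at 0 h, E2F1, CCNE1, CCNE2, MCM6, CDC6, PCNA, TYMS and SLBP, and up to 3 called genes for each pathway list. The rule asked for values in every library; the text prints the 0 h and 24 h libraries of members, in some in UACC62R alone, with the 2 h and 6 h libraries mostly in plots, and mostly fold changes for pathway genes. MCM3, E2F2, E2F4, E2F7, E2F8, FOXM1, MCM4, POLD3, POLE and SOX10 were named after their values were seen or for the difference of response. MCM5, MCM7 and CDKN1B were also named outside the rule. A gene that the naming rule picked is not reported here. Alternatives were DESeq2 1.42.0, size factors by the RLE method, library size alone, no filter on low counts, only the groups compared, all 16 libraries, a replicate block, and leaving out each library in turn. Same-numbered libraries deviated together from their group means in all 21 pairs of groups (correlation 0.17 to 0.72 over 8273 genes whose mean log2 CPM exceeded 4). This is a hint of pairing from the data, since no label gives it. The pairing entered only the replicate block, and the main fit and its counts did not use it.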

Additional observations from a re-analysis of the deposited data

Results flagged for a closer look

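The 24 h response differed between the lines for 5 genes by the test of the difference itself (edgeR, UACC62R minus UACC62P, log2 scale). It was -1.62 for CDCA7, -1.16 for ZNF367, -0.84 for MCM6, -0.71 for MCM3 and -0.69 for MCM2. CDCA7, ZNF367 and MCM6 are also among the genes with the lowest UACC62R level relative to UACC62P at 0 h, a comparison that shares the 0 h libraries with this one. With all 16 libraries in the fit, 0 of the 5 passed. With 1 library left out in turn, only CDCA7 and MCM6 kept the call in every fit, and ZNF367 lost it in every fit.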

How the results depend on the processing

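None of the 71 results on named genes changed sign under any alternative. Medians of the members at 2 h and 6 h against 0 h, near 0, changed sign under some: at 2 h in UACC62P the median was -0.20 with all 16 libraries and -0.03 with the block, against 0.03, and in UACC62R -0.02 with library size alone, against 0.01, and -0.07 without replicate 1 of the 0 h group. With the library labelled UACC62P 2 h replicate 1 put back (common dispersion 0.0622, against 0.00985 without it), members called lower numbered 25 in UACC62R at 24 h against 0 h, 16 there against 6 h, 12 in UACC62R against UACC62P at 0 h, 0 in UACC62P at 24 h against 0 h (16 at an unadjusted p under 0.05), 0 there against 6 h (15) and 0 for the difference of response (17); by DESeq2 on 15 libraries the last 3 were 22, 12 and 14. Members called lower in UACC62P at 24 h against 0 h were 34 with the replicate block, 32 with no filter, 30 with only the groups compared, 22 by DESeq2 and 4 with library size alone. Against 6 h they were 21, 22, 18 and 12 under the first 4 of these, and for the difference of response 24, 20, 3 and 14. At 6 h against 0 h members called higher in UACC62P were 3 with the block, 2 with no filter and 2 by DESeq2, and in UACC62R 1 with the block. The block moved no other count of the 48 members by over 1.5 times; it did move counts of the pathway lists, as given with them. The cause of these shifts was not tested.

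Leaving out each library in turn gave 36 to 47 members lower in UACC62R at 24 h against 0 h, 34 to 48 there against 6 h, 0 to 2 in UACC62P against 0 h, 0 to 2 against 6 h, 14 to 22 lower and 3 to 4 higher between the lines at 0 h, 33 to 44 lower and 2 to 3 higher between them at 24 h, and 2 to 15 for the difference of response. Of 71 results on named genes, 31 missed the threshold with all 16 libraries, 8 with only the groups compared, 1 by DESeq2 and 1 with library size alone; 74 of 304 results did so with 1 library left out. CDC6 in UACC62R at 24 h passed with the block, with no filter and without replicate 2 of the 24 h group. Library size alone moved the median of all genes between the lines to 0.10 at 0 h, against 0.02 with TMM. With 2 libraries a group, small changes could not be called, and POLE2 had the fewest reads of the set, 52 in its lowest library.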

Other observations

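In the left-out library, labelled UACC62P 2 h replicate 1, the replication genes printed here lay nearer to UACC62R than to UACC62P. MCM6 stood at 101 CPM in it, against 81.1 to 90.7 CPM in UACC62R up to 6 h and 168 to 183 CPM in the other UACC62P libraries up to 6 h. For CDCA7 it held 22.1 CPM, where UACC62R held 16.5 to 19.3 CPM and UACC62P 40.7 to 52.0 CPM over those times. For E2F7 it held 115 CPM, where UACC62R held 120 to 159 CPM and UACC62P 56.8 to 75.6 CPM. On a scale of 365 genes where the UACC62P libraries centre on 0 and those of UACC62R on 1, it lay at 0.99.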
